A study of Mus musculus with 6 samples.

Results

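The S phase and mitosis genes are 38 genes picked by symbol from a table of 46095 genes. They fall into 15 S phase genes, which make or copy DNA, and 23 G2/M genes, which prepare and carry out mitosis. All 38 were in the table. Their messenger RNA was measured by RNA sequencing in mouse bone marrow-derived macrophages, in 3 wild-type (WT) libraries and 3 libraries from mice lacking Cd226, written Cd226-/-. CD226, also called DNAM-1, is an adhesion and activating receptor of leukocytes.

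All 6 libraries came from C57BL/6 mice aged 56 days and shared the same culture. Bone marrow cells were grown for 7 days in 20 ng/ml M-CSF, the growth factor that drives macrophage differentiation. They then received 20 ng/ml IFN-γ and 100 ng/ml LPS for 24 h, the classical stimulus for the inflammatory state called M1. The labels name no cell type to which the loss of Cd226 is limited, and they do not say whether the 3 libraries of a genotype came from separate mice or cultures. The p-values below therefore measure the spread between these libraries, which may be technical. As all 6 were stimulated, each difference is one between genotypes under M-CSF, IFN-γ and LPS.

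A dividing cell switches on the 2 groups of genes in turn. E2F transcription factors, once released by the retinoblastoma protein family, turn on genes for nucleotide supply, helicase loading and DNA synthesis at the start of S phase. Genes for cyclins, kinases, spindle motors and cytokinesis follow in G2 and mitosis, when the MuvB core bound to B-MYB and FOXM1 acts at CHR elements and NF-Y acts at CCAAT boxes in their promoters. Macrophages divide in response to M-CSF, and LPS and IFN-γ are known to stop that division.

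The promoters show how the 2 groups differ in sequence. A RefSeq promoter (GRCm38.p6) was at hand for 31 of the 38 genes, 13 S phase and 18 G2/M; the others are Mcm4, Gins2, Ccna2, Aurkb, Tpx2, Kif20a and Foxm1. Each window of 250 bases before to 50 bases after the start was searched on both strands for E2F sites (TTTCCCGC, TTTGGCGC, TTTCGCGC, TTTGCCGC or TTCCCGCC, which can overlap each other), the CCAAT box (CCAAT) and CHR elements (TTTGAA or TTTAAA, the latter being its own reverse complement). The 6 stretches printed here are the 160 bases before the start of 2 replication helicase genes, 3 G2/M genes that were higher in Cd226-/- libraries, and Cdk1, which holds all 3 kinds of element. Capitals mark the elements, including those that lie on the other strand and so read as their reverse complement.
The Mcm5 stretch lies at chr8:75109349-75109508, plus strand, with 2 overlapping E2F sites and 2 CCAAT boxes.
Mcm5: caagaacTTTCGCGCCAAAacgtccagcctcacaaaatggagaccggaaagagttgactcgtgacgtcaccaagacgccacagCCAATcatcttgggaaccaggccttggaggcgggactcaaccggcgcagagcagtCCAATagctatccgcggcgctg
The Mcm6 stretch lies at chr1:128359706-128359865, minus strand, with 3 E2F sites and 2 CCAAT boxes.
Mcm6: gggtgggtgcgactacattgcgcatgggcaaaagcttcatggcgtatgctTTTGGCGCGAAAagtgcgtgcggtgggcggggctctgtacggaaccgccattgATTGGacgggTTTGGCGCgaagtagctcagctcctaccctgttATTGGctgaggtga
The Mki67 stretch lies at chr7:135716380-135716539, minus strand, with 1 CCAAT box and 2 CHR elements.
Mki67: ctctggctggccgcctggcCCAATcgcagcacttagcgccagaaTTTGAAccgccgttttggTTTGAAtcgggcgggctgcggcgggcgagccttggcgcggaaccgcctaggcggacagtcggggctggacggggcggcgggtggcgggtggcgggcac
The Top2a stretch lies at chr11:99024190-99024349, minus strand, with 4 CCAAT boxes and 1 CHR element.
Top2a: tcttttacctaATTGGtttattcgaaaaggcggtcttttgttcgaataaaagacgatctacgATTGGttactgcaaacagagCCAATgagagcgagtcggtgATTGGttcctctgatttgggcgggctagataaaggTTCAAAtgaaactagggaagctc
The Prc1 stretch, before the later of its starts in the table, lies at chr7:80294316-80294475, plus strand, with 1 CCAAT box and 1 CHR element.
Prc1: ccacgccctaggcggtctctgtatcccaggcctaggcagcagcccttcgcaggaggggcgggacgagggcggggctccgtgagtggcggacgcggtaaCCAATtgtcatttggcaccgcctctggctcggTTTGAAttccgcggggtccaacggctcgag
The Cdk1 stretch lies at chr10:69352913-69353072, minus strand, with 1 E2F site, 2 CCAAT boxes and 2 CHR elements.
Cdk1: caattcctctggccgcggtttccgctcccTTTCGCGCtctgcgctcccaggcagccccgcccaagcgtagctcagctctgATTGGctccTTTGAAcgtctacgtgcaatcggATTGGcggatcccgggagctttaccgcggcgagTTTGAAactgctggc

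An E2F site was found in 7 of 13 S phase promoters (53.8%), those of Rrm1, Mcm3, Mcm5, Mcm6, Mcm7, Cdc6 and Cdt1, and in 1 of 18 G2/M promoters (5.56%), that of Cdk1. Among all 27025 genes with a promoter the share was 4.46%, and among the 9517 of them that were tested for expression it was 8.09%. CHR elements had the opposite distribution, with 16 of 18 G2/M promoters (88.9%) and 4 of 13 S phase promoters (30.8%), against 30.6% of all promoters and 22.6% of those of tested genes. A CCAAT box stood in 16 of 18 G2/M promoters (88.9%) and 8 of 13 S phase promoters (61.5%), against 41.1% and 42.4%. Both a CCAAT box and a CHR element were present in 15 of 18 G2/M promoters (83.3%) and 3 of 13 S phase promoters (23.1%), against 12.2% of all promoters. These are matches of letters in a window, and the members are known cell cycle genes, so the shares describe the 2 groups and were not tested. Promoters of cell cycle genes outside the 38 had the same order, with an E2F site in 17 of 39 other S phase genes (43.6%) and 4 of 51 other G2/M genes (7.84%), and a CHR element in 25.6% and 72.5% of them.

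**Figure D1:**
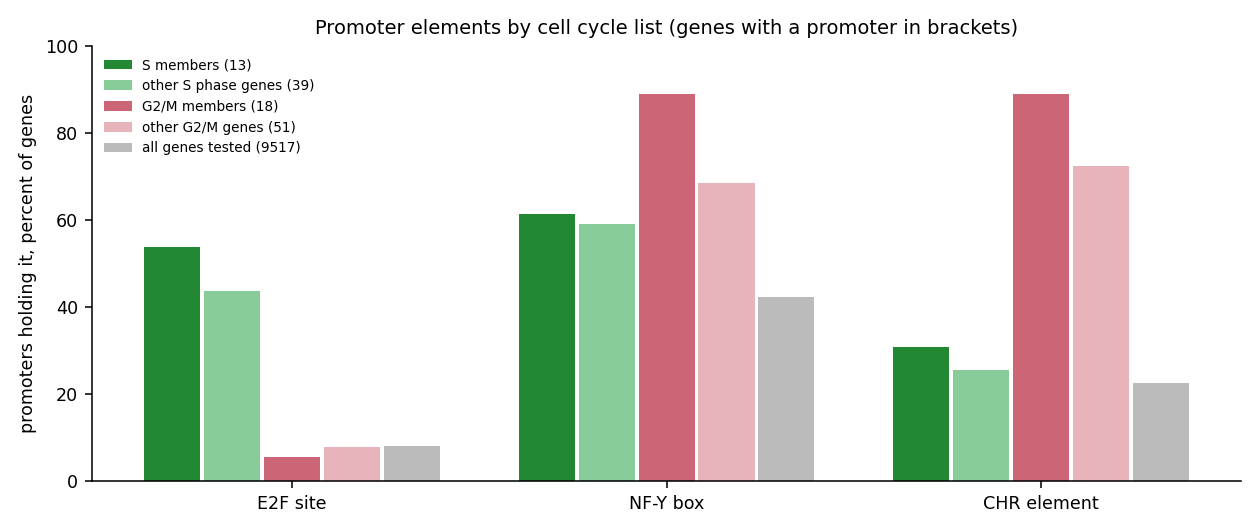
Bars give the percent of genes whose promoter window (250 bases before to 50 after the start) holds an E2F site, an NF-Y (CCAAT) box or a CHR element, for 5 gene lists, with the number of genes in brackets. E2F sites reach 53.8% in S phase members and 5.56% in G2/M members, and CHR elements reach 30.8% and 88.9%.

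Sequencing depth ran from 16838527 to 21658061 counts per library, so that 1 count was worth 0.0452 to 0.0600 CPM (counts-per-million, scaled for composition). Of the 46095 genes, 22604 had a count and 13215 passed the filter on low counts and were tested with edgeR's quasi-likelihood test. At an adjusted p under 0.05 (Benjamini-Hochberg over all tested genes), 30.9% of genes were called, 16.1% higher and 14.8% lower in Cd226-/- libraries. The first principal component, with 58.4% of the variance, separated the genotypes, and the second, with 14.9%, set Cd226-/- replicate 1 (-23.1) apart from Cd226-/- replicates 2 and 3 (9.95 and 10.8). Cd226-/- replicates 2 and 3 also held transcripts of liver: Alb (albumin) had 266 and 279 counts there and 0 in the other 4 libraries. Results are therefore also given with Cd226-/- replicate 1 as the only Cd226-/- library, in a fit that takes its variation from the WT libraries. Cd226 itself had 5, 17 and 23 counts in WT against 11, 10 and 8 in Cd226-/- libraries, so transcript counts of the targeted gene did not check the labels (log2 fold change -0.50 ± 0.50, adjusted p 0.480 by edgeR). Of the 8 macrophage markers, all tested, 4 were higher (Cd68, Adgre1, Mertk and Fcgr1) and 3 were lower (Cd14, Itgam and Csf1r), by 0.19 to 0.39 on the log2 scale upward and -0.37 to -0.29 downward, and the 8 summed to 17932 to 19895 CPM in WT and 19212 to 20005 CPM in Cd226-/- libraries.

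In the Cd226-/- libraries 7 of the 32 members that could be tested were higher and none was lower. They were the helicase subunit Mcm5 among S phase genes, and Mki67, Top2a, Ccna2, Tpx2, Kif20a and Prc1 among G2/M genes, with rises of 1.28-fold (Mki67) to 3.47-fold (Ccna2). Ccna2 passed the filter on low counts through its Cd226-/- libraries alone. The share called higher was 1 of 15 in S phase (6.67%) and 6 of 17 in G2/M (35.3%), beside the 16.1% of all genes. The median log2 fold change was 0.13 over S phase members and 0.52 over tested G2/M members, beside -0.0045 over all tested genes. Both moved with single libraries: without Cd226-/- replicate 3 the medians were -0.021 and 0.34 and 4 members were called, 1 of S phase and 3 of G2/M, and without WT replicate 3 the medians were 0.020 and 0.34. When only genes of at least 5 CPM were tested, 3 of 10 S phase members and the 1 G2/M member left, Mki67, were called. The shares of all genes called in these refits were not counted, so their member counts have no background beside them. Whether the 2 groups differ from each other or from other genes was not tested, since members of a list are not replicates. In RNA from whole cultures, more cells in a phase and more RNA per cell cannot be told apart.

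The count of 0 lower members came from edgeR, and DESeq2 and limma-voom also gave 0. At an unadjusted p under 0.05 by edgeR, 1 member was lower and 11 were higher. The share of all genes at that threshold was not counted, so these counts cannot be called particular to the members. At the stricter adjusted p, 16.1% of all tested genes were already higher and 14.8% lower. Most members were weakly expressed: 27 of 38 had a mean under 5 CPM, among them 22 of the 23 G2/M genes. Among all tested genes under 5 CPM, 17.4% were called, 11.2% higher and 6.21% lower. Of the members in that range, 5 of 16 tested G2/M genes (31.2%) and 0 of 5 S phase genes were called higher. The filter removed 6 members, Ccnb2, Cdc20, Plk1, Bub1, Ube2c and Cenpf, and Ccna2 and Nusap1 passed it through their Cd226-/- libraries alone, so the tested G2/M genes are not all G2/M genes. A fit of all genes with at least 1 count included the 38 members and called the same 7 higher and 0 lower, where 9.70% and 9.31% of 22604 genes were called higher and lower. Its G2/M median was 0.54 over 23 genes.

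Ranges of CPM that did not overlap between genotypes were found for 13 tested members with Cd226-/- higher and 1, E2f1, with Cd226-/- lower. Over all 13215 tested genes 44.3% did not overlap, 22.1% with Cd226-/- higher and 22.3% lower. By group, 4 of 15 S phase members (26.7%) and 9 of 17 tested G2/M members (52.9%) stood higher without overlap. The 9 include Ccna2 and Nusap1, which passed the filter through their Cd226-/- libraries alone. Over all 23 G2/M genes 11 stood higher without overlap and 0 stood lower. The 11 include the untested Bub1 and Ube2c, with means of 6.33 and 3.00 counts, where a few reads decide the overlap. The share over all genes without the filter was not counted, so the counts over all 23 genes have no background to be set against.

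**Figure D2:**
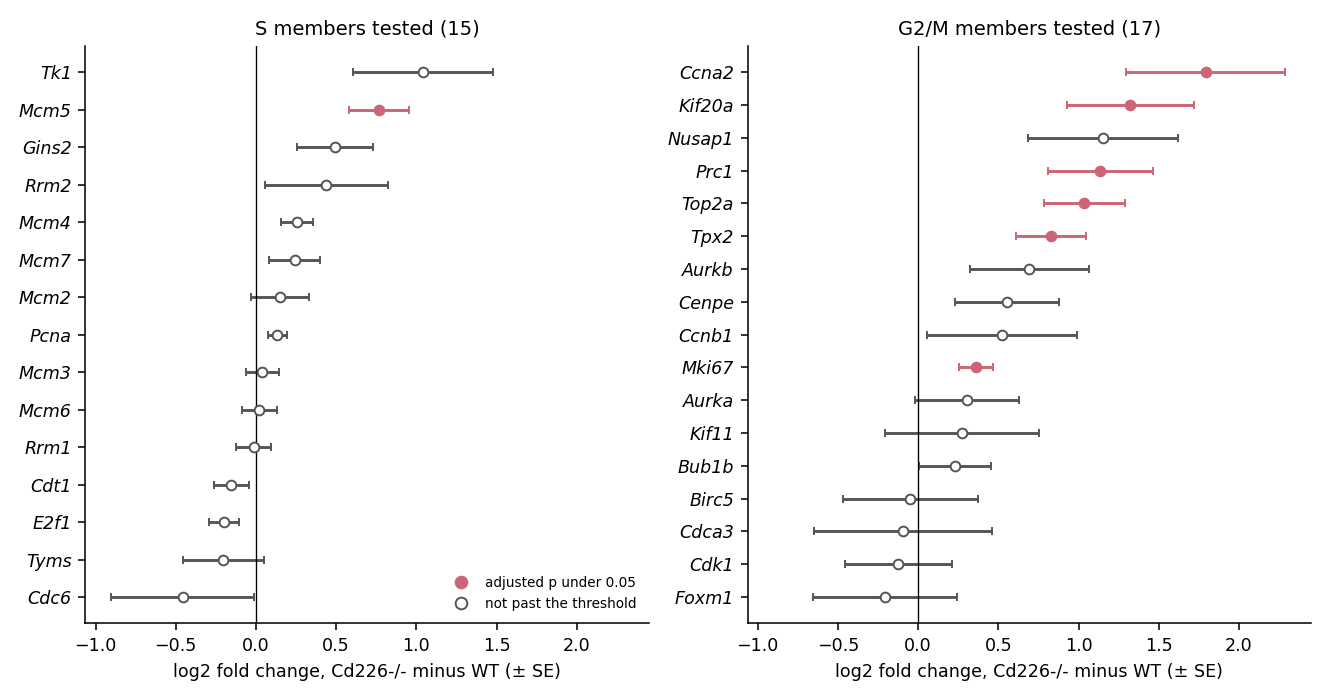
Points give the log2 fold change of each tested member, Cd226-/- minus WT, with its standard error from edgeR (3 libraries per genotype), S phase members on the left and G2/M members on the right, filled where the adjusted p was under 0.05. The filled points are 1 of 15 on the left and 6 of 17 on the right, and all lie above 0.

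Levels were compared between genes per exon length, as TPM (transcripts-per-million) in WT libraries (mean ± SD, n = 3). Pcna, the sliding clamp of DNA polymerase, was the highest at 131 ± 0.58 TPM, followed by E2f1 at 28.1 ± 0.83, Mcm3 at 17.9 ± 1.10 and Cdt1 at 16 ± 1.6 TPM. Mcm4 (14.0 ± 0.76) and Mcm6 (13.1 ± 0.49) came next, and from Mcm3 to Mcm6 each neighbour in the order lay within the summed SDs of the pair. The first G2/M gene in the order was Mki67, in place 7 at 7.58 ± 0.69 TPM. At the other end stood Ccna2 at 0.319, Bub1 at 0.125, Ube2c at 0.0734 and Cenpf at 0.0129 TPM. In a library 3 counts were worth 0.136 to 0.180 CPM, and the WT means of Ube2c and Cenpf were under that.

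**Figure D3:**
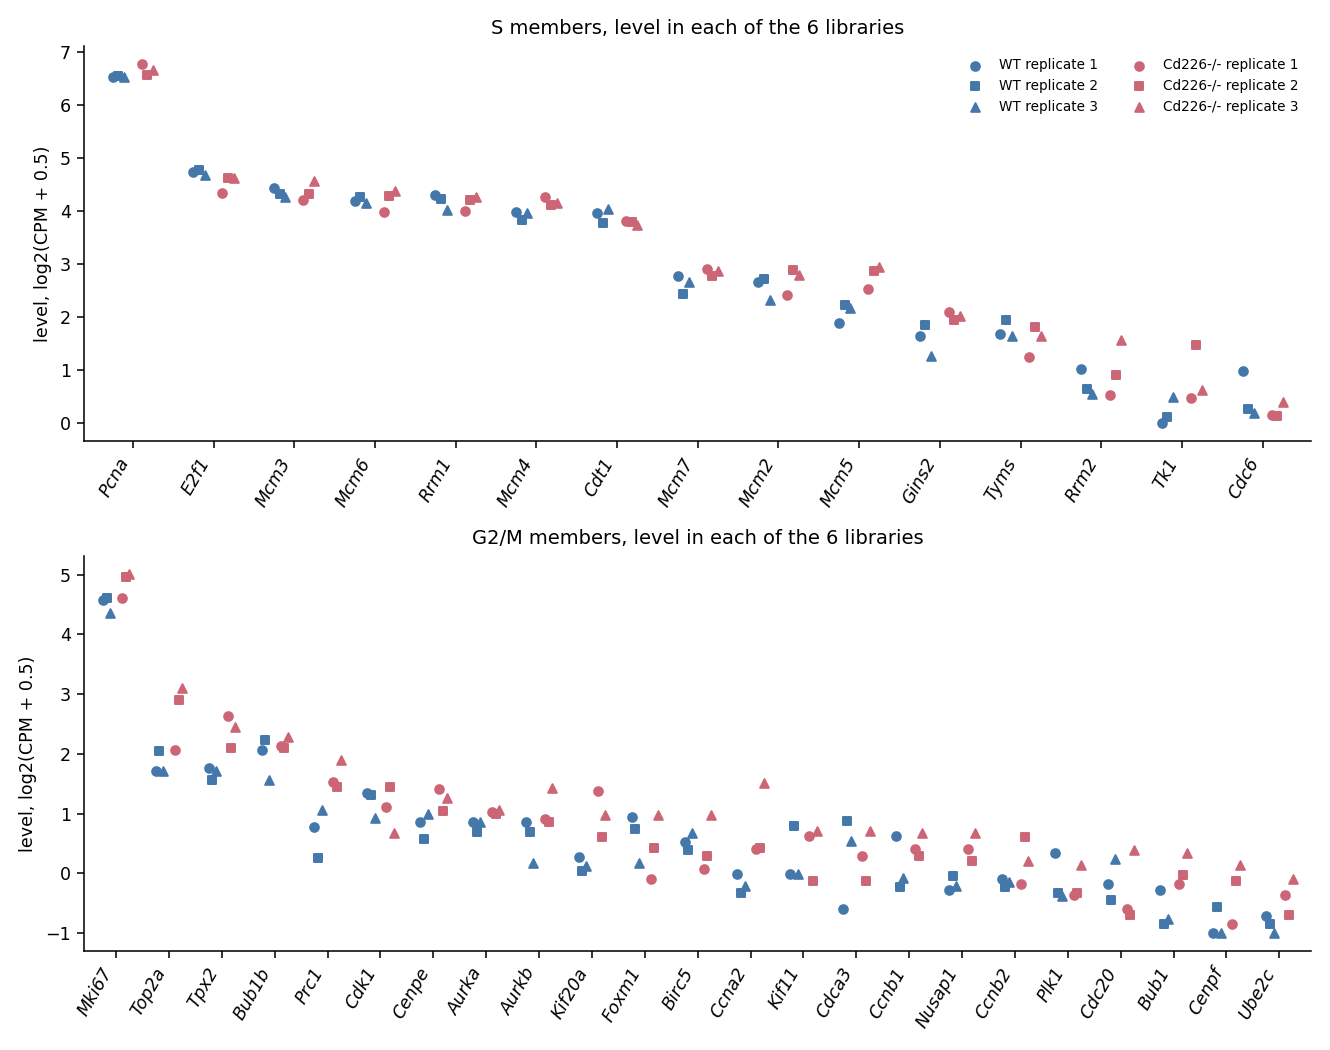
Each point is the level of one member in one library on a log2(CPM + 0.5) scale, WT in blue and Cd226-/- in red, with a marker shape for each replicate number, S phase members above and G2/M members below, ordered by mean level. Levels run from above 6 for Pcna to about -1 for Ube2c and Cenpf, and the red triangle, Cd226-/- replicate 3, is the highest point of 15 of the 23 G2/M members.

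The 6 subunits of the MCM2-7 helicase, which unwinds DNA at the replication fork, gave 1 call. Mcm5 (chr8:75109468-75128439 in GRCm38) was at 3.18, 4.15 and 3.98 CPM in WT and 5.24, 6.83 and 7.19 CPM in Cd226-/- libraries. Every Cd226-/- library was above every WT library, and the rise was 1.70-fold (log2 fold change 0.77 ± 0.19 SE, adjusted p 0.00331 by edgeR, 0.000474 to 0.242 over the alternatives). With Cd226-/- replicate 1 alone the rise was 0.48 on the log2 scale and the call was lost (adjusted p 0.242). Mcm4 was at 15.3, 13.8 and 15 CPM in WT and 18.7, 16.8 and 17.2 CPM in Cd226-/- libraries, again without overlap. Its log2 difference of 0.26 ± 0.10 just missed the threshold (edgeR adjusted p 0.0565, 0.0400 to 0.156 over the alternatives) and passed it when only genes of at least 5 CPM were tested (adjusted p 0.0400). The other 4 subunits did not pass, with log2 differences of 0.24 for Mcm7 (adjusted p 0.269), 0.15 for Mcm2 (0.561), 0.040 for Mcm3 (0.799) and 0.021 for Mcm6 (0.903). Mcm7 shares 7.25% of its exon bases with Ap4m1 and 1.45% with Cops6 on the opposite strand, and whether the counting used strand is not given in the sources used here.

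Helicase loading and activation genes gave no call. Cdc6 and Cdt1 bring the helicase to origins, and Gins2 is a subunit of GINS, which activates it. Cdt1 was at 15, 13.1 and 16 CPM in WT and 13.6, 13.4 and 12.8 CPM in Cd226-/- libraries, ranges that overlap (log2 difference -0.15, edgeR adjusted p 0.303). Cdc6 was rare, with 27, 12 and 14 counts in WT against 11, 10 and 15 in Cd226-/- libraries, and its log2 difference of -0.46 ± 0.45 is about the size of its error. Gins2 was at 2.63, 3.10 and 1.90 CPM in WT and 3.75, 3.36 and 3.54 CPM in Cd226-/- libraries. The Gins2 ranges did not overlap, and the difference of 0.49 ± 0.24 did not pass (edgeR adjusted p 0.123). As 67.3% of Gins2 exon bases lie opposite Gse1, a gene with a mean of 900 counts that was itself higher (log2 0.20, adjusted p 0.0395), reads of the pair cannot be told apart if strand was ignored.

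Pcna was steady among WT libraries at 91.6, 92.7 and 91.9 CPM, and stood at 109, 94.1 and 100 CPM in Cd226-/- libraries. All 3 Cd226-/- values were above the WT values, Cd226-/- replicate 2 by the least. The log2 difference was 0.13 ± 0.057 (edgeR adjusted p 0.0829, 0.00949 to 0.285 over the alternatives), and it passed with Cd226-/- replicate 1 alone (0.25, adjusted p 0.00949), without Cd226-/- replicate 2 (adjusted p 0.0367) and among genes of at least 5 CPM (adjusted p 0.0498). Pcna made up 39.8 to 46.3% of the counts of the S phase members. E2f1, the transcription factor that drives S phase genes, was the only member whose Cd226-/- values all lay below the WT values, at 26.0, 26.8 and 25.2 CPM in WT and 19.8, 24.0 and 24.1 CPM in Cd226-/- libraries. The log2 difference of -0.20 ± 0.091 did not pass (edgeR adjusted p 0.101, 0.0294 to 0.362 over the alternatives). It passed with scaling by library size alone (-0.25, adjusted p 0.0433) and with Cd226-/- replicate 1 alone (-0.39, adjusted p 0.0294).

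The nucleotide supply genes did not pass with all 6 libraries. Rrm1 and Rrm2 encode the subunits of ribonucleotide reductase, Tyms thymidylate synthase and Tk1 thymidine kinase. Tk1 had 9, 10 and 20 counts in WT against 16, 38 and 19 in Cd226-/- libraries, with a log2 difference of 1.04 ± 0.43 (edgeR adjusted p 0.0744, 0.0270 to 0.751 over the alternatives). It passed without Cd226-/- replicate 1 (1.28, adjusted p 0.0270) and was 0.51 without Cd226-/- replicate 2 (adjusted p 0.511). Its highest library was Cd226-/- replicate 2, and the groups overlapped. Rrm2 had 28, 18 and 21 counts in WT against 17, 23 and 45 in Cd226-/- libraries, so its difference of 0.44 ± 0.38 rested on Cd226-/- replicate 3 and was -0.021 without it. Rrm1 (-0.014, edgeR adjusted p 0.936) and Tyms (-0.20, 0.576) gave differences under their errors.

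Mki67 and Top2a, the proliferation antigen Ki-67 that coats mitotic chromosomes and the topoisomerase that untangles them, were both called. Mki67 (chr7:135689784-135716450) was at 23.2, 23.8 and 20.0 CPM in WT and 23.8, 30.5 and 31.8 CPM in Cd226-/- libraries. Cd226-/- replicate 1 was level with the highest WT library, so the groups overlapped, and Cd226-/- replicates 2 and 3 were above all WT libraries. The rise was 1.28-fold (log2 0.36 ± 0.11, edgeR adjusted p 0.0129, 0.000166 to 0.677 over the alternatives). It did not pass without WT replicate 3 (adjusted p 0.0828), without Cd226-/- replicate 2 (0.0535) or 3 (0.0826), or with Cd226-/- replicate 1 alone (0.0962 on the log2 scale, adjusted p 0.677). Top2a (chr11:98992947-99024199) was at 2.79, 3.62 and 2.76 CPM in WT and 3.69, 7.01 and 8.06 CPM in Cd226-/- libraries. Here Cd226-/- replicate 1 was just above the highest WT library, and Cd226-/- replicates 2 and 3 were well above both. The 2.05-fold rise (log2 1.04 ± 0.25, edgeR adjusted p 0.00414, 5.00e-06 to 0.597 over the alternatives) was 0.28 on the log2 scale with Cd226-/- replicate 1 alone, where it was not called (adjusted p 0.597).

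Of the cyclins and their kinase, Ccna2 alone was called. Cyclin A2 acts with CDK2 in S phase and with CDK1 in G2. Ccna2 (chr3:36564865-36573038) had 9, 5 and 8 counts in WT against 15, 14 and 43 in Cd226-/- libraries, or 0.493, 0.292 and 0.362 against 0.827, 0.839 and 2.34 CPM. No WT library reached a Cd226-/- library, and Cd226-/- replicate 3 stood far above the others. Ccna2 passed the filter through its Cd226-/- libraries alone. The rise was 3.47-fold (log2 1.79 ± 0.50, edgeR adjusted p 0.00832, 0.00198 to 0.390 over the alternatives). Without Cd226-/- replicate 3 it was 1.11 on the log2 scale and was not called (adjusted p 0.161), and with Cd226-/- replicate 1 alone it was 1.10 (adjusted p 0.390). Exosc9, which shares 12.5% of the Ccna2 exon bases on the opposite strand, had a mean of 569 counts and no call (-0.13, adjusted p 0.267).

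The mitotic cyclins B and CDK1 gave no call. Ccnb1 had 19, 6 and 10 counts in WT against 15, 12 and 20 in Cd226-/- libraries, with overlapping groups (log2 0.52, edgeR adjusted p 0.425). Cdk1, the kinase that starts mitosis, had 37, 34 and 31 counts in WT against 30, 37 and 20 in Cd226-/- libraries (-0.12 ± 0.33, adjusted p 0.811), and its lowest library was Cd226-/- replicate 3, where Ccna2 was highest. Ccnb2 was below the filter with 8, 6 and 9 counts in WT against 7, 17 and 12 in Cd226-/- libraries. Its ratio of summed counts, Cd226-/- over WT at equal scaled depth, was 1.69, with an exact 95% interval for counting error of 0.975 to 2.99.

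Spindle assembly and cytokinesis genes held the other 3 calls. TPX2 builds spindle microtubules and activates Aurora A, the motor KIF20A works at the central spindle, and PRC1 bundles the microtubules there. Tpx2 (chr2:152847964-152895321) was at 2.90, 2.45 and 2.76 CPM in WT and 5.68, 3.78 and 4.96 CPM in Cd226-/- libraries, with a clear gap between the groups. Its 1.77-fold rise (log2 0.83 ± 0.22, edgeR adjusted p 0.00567) was called under every alternative that tested it, including each library left out. The log2 difference was 0.69 to 1.07 over these alternatives. The fit of genes of at least 5 CPM did not include Tpx2. Tpx2 was highest in Cd226-/- replicate 1, unlike Mki67, Top2a, Ccna2 and Prc1, which were highest in Cd226-/- replicate 3.

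Kif20a had 13, 9 and 13 counts in WT against 38, 17 and 27 in Cd226-/- libraries, and was also highest in Cd226-/- replicate 1. The groups did not overlap, and the rise was 2.50-fold (log2 1.32 ± 0.40, edgeR adjusted p 0.0143, 0.0130 to 0.0797 over the alternatives). The call was lost on leaving out Cd226-/- replicate 1 (adjusted p 0.0797) and also with either WT replicate 2 (0.0545) or WT replicate 3 (0.0558) removed, and was kept with Cd226-/- replicate 1 alone (adjusted p 0.0193). Cdc23 lies opposite 29.3% of Kif20a exon bases, with a mean of 577 counts and no call (log2 -0.094, adjusted p 0.380). Prc1 (chr7:80294445-80316259) was at 1.21, 0.701 and 1.58 CPM in WT and 2.37, 2.22 and 3.21 CPM in Cd226-/- libraries, without overlap. The rise was 2.20-fold (log2 1.14 ± 0.33, edgeR adjusted p 0.0108, 0.00361 to 0.130 over the alternatives). It was not called without WT replicate 2 (adjusted p 0.0512) or Cd226-/- replicate 3 (0.0733), or with Cd226-/- replicate 1 alone (0.130). Rccd1, opposite 11.1% of Prc1 exon bases, had a mean of 38.8 counts and no call (log2 0.52, adjusted p 0.222).

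Other spindle and kinetochore members did not pass the test. Nusap1, which stabilises spindle microtubules, came nearest, with 6, 8 and 8 counts in WT against 15, 11 and 20 in Cd226-/- libraries. Its ranges did not overlap, and the log2 difference was 1.15 ± 0.47 (edgeR adjusted p 0.0662). The kinetochore motor Cenpe differed by 0.55 (adjusted p 0.206) and the spindle motor Kif11 by 0.27 (0.703). Of the Aurora kinases, Aurkb had 24, 19 and 14 counts in WT against 25, 22 and 40 in Cd226-/- libraries (log2 0.69, adjusted p 0.168), and Aurka differed by 0.30 (0.517). The checkpoint kinase Bub1b differed by 0.23 (adjusted p 0.474), and Birc5, the survivin subunit of the Aurora B complex, by -0.051 (0.942). Cdca3, which helps trigger mitotic entry, had 3, 23 and 21 counts in WT against 13, 7 and 21 in Cd226-/- libraries, a spread within genotypes that left its difference at -0.094 (adjusted p 0.918). Foxm1, the transcription factor of the G2/M genes, had 26, 20 and 14 counts in WT against 8, 14 and 27 in Cd226-/- libraries (log2 -0.21, adjusted p 0.763).

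The remaining 5 untested members were near the limit of counting. Bub1, the checkpoint kinase, had 6, 1 and 2 counts in WT against 7, 8 and 14 in Cd226-/- libraries, a ratio of 3.48 (exact 95% interval 1.6 to 8.36). Ube2c, the ubiquitin-conjugating enzyme of the anaphase-promoting complex, had 2, 1 and 0 counts against 5, 2 and 8. Its ratio was 5.40 (1.53 to 29.1), and it overlaps Tnnc2 over 22.8% of its exon bases, a gene with a mean of 0.833 counts. Cenpf, a kinetochore protein, had 0, 3 and 0 counts against 1, 7 and 11, a ratio of 6.84 (2.01 to 36.1). Bub1 and Ube2c did not overlap between the genotypes and Cenpf did. Cdc20, the activator of the anaphase-promoting complex, had 7, 4 and 15 counts against 3, 2 and 15 (ratio 0.831, 0.440 to 1.55), and Plk1, Polo-like kinase 1, had 14, 5 and 6 against 5, 5 and 11 (0.908, 0.483 to 1.69). These intervals cover counting error only, not the spread between libraries, and are no test of the genotype.

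Summed over members, S phase transcripts were at 230.0, 227 and 221 CPM in WT and 234, 235 and 247 CPM in Cd226-/- libraries. The means were 226 ± 4.65 and 239 ± 7.29 CPM (SD, n = 3), a ratio of 1.06. As TPM, which weights by length and was not scaled for composition, the 2 genotypes were level, at 242 ± 2.76 and 242 ± 9.14 TPM. G2/M transcripts were at 47.4, 47.4 and 40.8 CPM in WT and 55.0, 61.9 and 74.2 CPM in Cd226-/- libraries, or 45.2 ± 3.81 and 63.7 ± 9.74 CPM, a ratio of 1.41. As TPM they were at 25.6 ± 1.99 in WT and 33.8 ± 6.26 in Cd226-/- libraries, a ratio of 1.32. The S phase sums did not overlap as given, but they did when scaled by library size alone (234, 230.4 and 225 against 225, 232 and 246 CPM) and without Pcna (138, 134 and 129 against 126, 141 and 148 CPM). The G2/M sums did not overlap, and they spread more among Cd226-/- libraries, with replicate 1 lowest and replicate 3 highest. Mki67 gave 42.8 to 50.3% of the G2/M counts. Without Mki67 the sums were 24.2, 23.5 and 20.8 CPM in WT and 31.2, 31.5 and 42.4 CPM in Cd226-/- libraries, a ratio of 1.53.

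Relative to the S phase sum, the G2/M sum was 20.6, 20.9 and 18.5% in WT and 23.4, 26.3 and 30.0% in Cd226-/- libraries. The means were 20.0 ± 1.33% in WT and 26.6 ± 3.27% in Cd226-/- libraries (SD, n = 3), and the 2 ranges did not overlap. As a mean of log2(CPM + 0.5), which weights each gene equally, G2/M members were 2.36, 2.36 and 2.37 below S phase members in WT and 2.11, 2.31 and 1.95 below them in Cd226-/- libraries. The difference between genotypes was 0.24, and it moved to 0.41 and 0.11 with pseudocounts of 0.1 and 2 CPM in place of 0.5. Cd226-/- replicate 3 was the highest library for 19 of 38 members, 15 of 23 G2/M (65.2%) and 4 of 15 S phase (26.7%), beside 14.1% of all tested genes. Without Cd226-/- replicate 3 the ratio of the G2/M sums was 1.29, and 3 G2/M members were called in place of 6. With Cd226-/- replicate 1 alone, 3 members were higher, Pcna, Tpx2 and Kif20a, and E2f1 was lower.

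**Figure D4:**
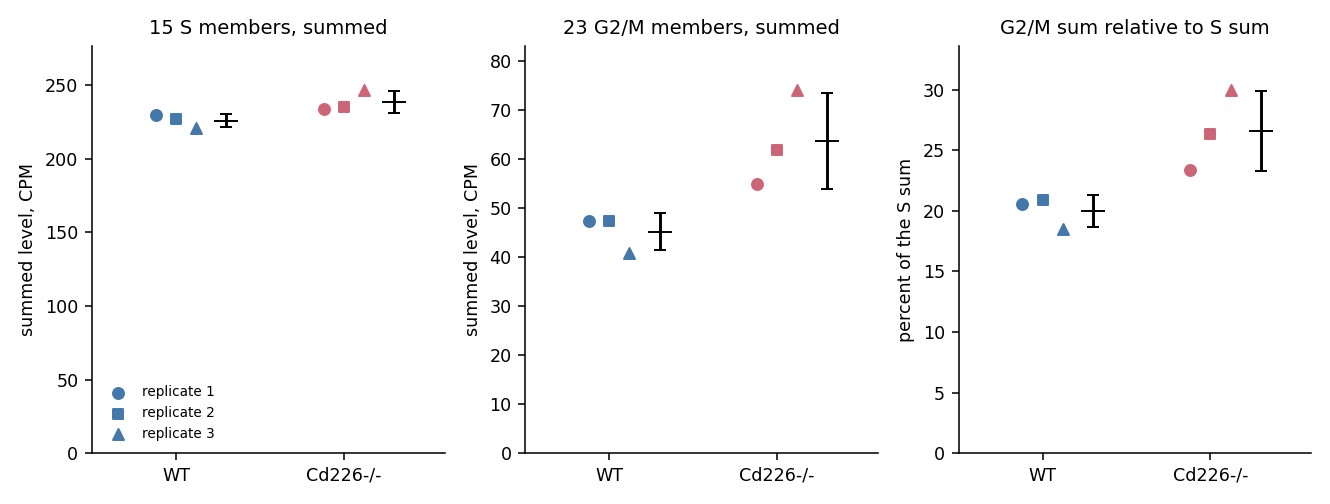
Points give the summed level of 15 S phase members and of 23 G2/M members in CPM, and the G2/M sum as a percent of the S phase sum, in each of the 6 libraries, with bars for the mean ± SD (n = 3). The S phase sums lie at 221 to 247 CPM, and the G2/M sums at 40.8 to 47.4 CPM in WT and 55.0 to 74.2 CPM in Cd226-/- libraries.

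Further genes of the same pathways, listed from textbook knowledge but with earlier results of these data known, were read in the same fit. Of 50 other S phase genes 45 were tested, 9 were higher (20.0%) and 1 was lower (2.22%), with a median log2 fold change of 0.13. Of 64 other G2/M genes 44 were tested, 3 were higher (6.82%) and 2 were lower (4.55%), with a median of 0.074. Over all tested genes 16.1% were higher and 14.8% were lower. The summed levels of the other G2/M genes were 463, 442 and 456 CPM in WT and 438, 447 and 467 CPM in Cd226-/- libraries, so they overlapped where those of the 23 members did not. A few genes weigh most in these sums. Zwint had means of 126 CPM in WT and 105 CPM in Cd226-/- libraries, Ckap5 67.8 and 71.5 CPM, and Bub3 51.6 and 52.6 CPM. The summed levels of the other S phase genes were 608, 625 and 619 CPM in WT and 688, 679 and 679 CPM in Cd226-/- libraries.

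Among the other S phase genes, Uhrf1, which guides DNA methylation to new DNA, had 12, 15 and 28 counts in WT against 56, 43 and 47 in Cd226-/- libraries. It rose 2.89-fold (log2 1.53 ± 0.32, edgeR adjusted p 0.000926), with no overlap. Pole, the leading-strand polymerase, had 10, 12 and 16 counts against 33, 29 and 28 and rose 2.55-fold (adjusted p 0.00660). Pola2, of the primase complex, rose 1.34-fold (adjusted p 0.000480) and the deoxynucleoside kinase Dck 1.20-fold (0.00125), while Pola1, the catalytic partner of Pola2, was the only one lower (log2 -0.60, 0.0364). Dnmt1 (-0.066, adjusted p 0.385) and Pold3 (0.16, 0.0755) did not pass. Dck was called under every alternative tried, and Uhrf1 under every alternative that tested it, as the fit of genes of at least 5 CPM did not. With Cd226-/- replicate 1 alone the calls of Pola2 (adjusted p 0.0978) and Pole (0.0674) were lost. Pola1 lost its call by DESeq2 (adjusted p 0.0511) and when any 1 library other than Cd226-/- replicate 3 was left out (0.0785 to 0.143), with the smallest difference, -0.37, without Cd226-/- replicate 1. The list had 6 to 10 genes higher when 1 library was left out, with 6 without WT replicate 3, and 0 lower in all of these fits but the one without Cd226-/- replicate 3.

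Among the other G2/M genes, Hjurp (1.42-fold, edgeR adjusted p 0.000216) and Cenpa (log2 0.71, 0.0205), the chaperone and the histone of the centromere, were higher, as was the condensin subunit Smc4 (1.21-fold, 0.0111). Gtse1, a microtubule protein of G2 and mitosis, had 65, 45 and 49 counts in WT against 25, 20 and 26 in Cd226-/- libraries and fell by 1.06 ± 0.29 on the log2 scale (edgeR adjusted p 0.00809). Its groups were far apart, in the direction opposite to that of the called members. The kinetochore gene Zwint was also lower (-0.26, adjusted p 0.00138). Ckap5 (0.077, adjusted p 0.333) and Bub3 (0.028, 0.766) did not pass. Hjurp and Zwint were called under every alternative tried. Without WT replicate 1 the calls of Gtse1 (adjusted p 0.0599), Smc4 (0.0597) and Cenpa (0.0543) were lost, which left 1 gene higher and 1 lower. They were also lost with Cd226-/- replicate 1 alone (0.0892, 0.191 and 0.0772), and that of Cenpa without WT replicate 3 (0.0644) or Cd226-/- replicate 3 (0.0746). The list median was -0.058 without Cd226-/- replicate 3 and 0.20 without Cd226-/- replicate 1, and 4 genes were lower when scaled by library size alone.

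Of the 18 E2F, RB and MuvB regulators tested, 4 were higher (22.2%) and 3 were lower (16.7%), with a median of -0.016. These shares were near the 16.1% and 14.8% of all tested genes. E2f2, an activating E2F, had 8, 10 and 15 counts in WT against 47, 33 and 35 in Cd226-/- libraries and rose 3.75-fold (log2 1.91 ± 0.36, edgeR adjusted p 0.000329). This was opposite in sign to E2f1, whose difference did not pass. Rbl1, the pocket protein p107, rose 1.44-fold (adjusted p 2.07e-06), and the repressor E2f8 (2.16-fold, 0.00798) and the MuvB subunit Lin9 (1.48-fold, 0.00839) were also higher. Mybl1, a relative of B-MYB, had 45, 29 and 59 counts in WT against 14, 13 and 13 in Cd226-/- libraries and fell by 1.6 ± 0.34 on the log2 scale (edgeR adjusted p 0.00108). The E2F partner Tfdp1 (-0.35, adjusted p 0.00116) and E2f6 (-0.34, 0.0180) were lower too. Rb1 (-0.035, adjusted p 0.717) and E2f4 (-0.13, 0.144) did not pass. Rbl1 was called under every alternative tried. E2f2 and Mybl1 were called under every alternative that tested them, as the fit of genes of at least 5 CPM did not. Lin9 lost its call without Cd226-/- replicate 3 (adjusted p 0.0509) and with Cd226-/- replicate 1 alone (0.25 on the log2 scale, adjusted p 0.494). E2f8 lost it without WT replicate 3 (0.0512), Tfdp1 with Cd226-/- replicate 1 alone (0.0885), and E2f6 without WT replicate 3 (0.0599) or Cd226-/- replicate 1 (0.0854). Scaled by library size alone, 5 of the regulators were lower, and 2 were lower without WT replicate 3.

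Replication-dependent histone genes supply nucleosomes in S phase. Of 38 listed, 9 were at 0 in all libraries and 8 were tested, of which 4 were lower and 0 higher by edgeR. Of all tested genes 14.8% were lower and 16.1% higher. The fit of genes with at least 1 count took in 29 of them and gave 4 lower and 1 higher, beside 9.31% and 9.70% of all genes. Their summed level was 85.0, 69.9 and 92.1 CPM in WT and 43.9, 49.8 and 44.3 CPM in Cd226-/- libraries, without overlap and against the direction of the S phase sum. Most of it came from Hist1h2bc (means of 37.3 CPM in WT and 20.9 CPM in Cd226-/- libraries) and Hist1h1c (36.8 and 19.8 CPM). As 36 of the 38 had a mean under 5 CPM, the sum says little of the other histones. Hist1h2bc, with 723, 553 and 884 counts in WT against 352, 384 and 373 in Cd226-/- libraries, fell by 0.84 ± 0.094 on the log2 scale (edgeR adjusted p 5.7e-07), and Hist1h1c fell by 0.90 ± 0.13 (adjusted p 0.000204). Hist2h3c2 (-1.93, adjusted p 0.0171) and Hist1h1d (-1.59, 0.0195) were also lower, and Hist1h4i (-0.63, 0.0923) did not pass. Hist1h2bc and Hist1h1c were called under every alternative tried. Hist2h3c2 lost its call without WT replicate 1 (adjusted p 0.105) or Cd226-/- replicate 3 (0.104) and with Cd226-/- replicate 1 alone (0.321). Hist1h1d lost it by DESeq2 (0.0536), without WT replicate 3 (0.0989), Cd226-/- replicate 1 (0.0534) or Cd226-/- replicate 3 (0.0904), and with Cd226-/- replicate 1 alone (0.139). Without Cd226-/- replicate 3 the histones lower were 2. Most of these messenger RNAs end in a stem-loop and not a poly(A) tail, so their counts depend on how RNA was selected.

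**Figure D5:**
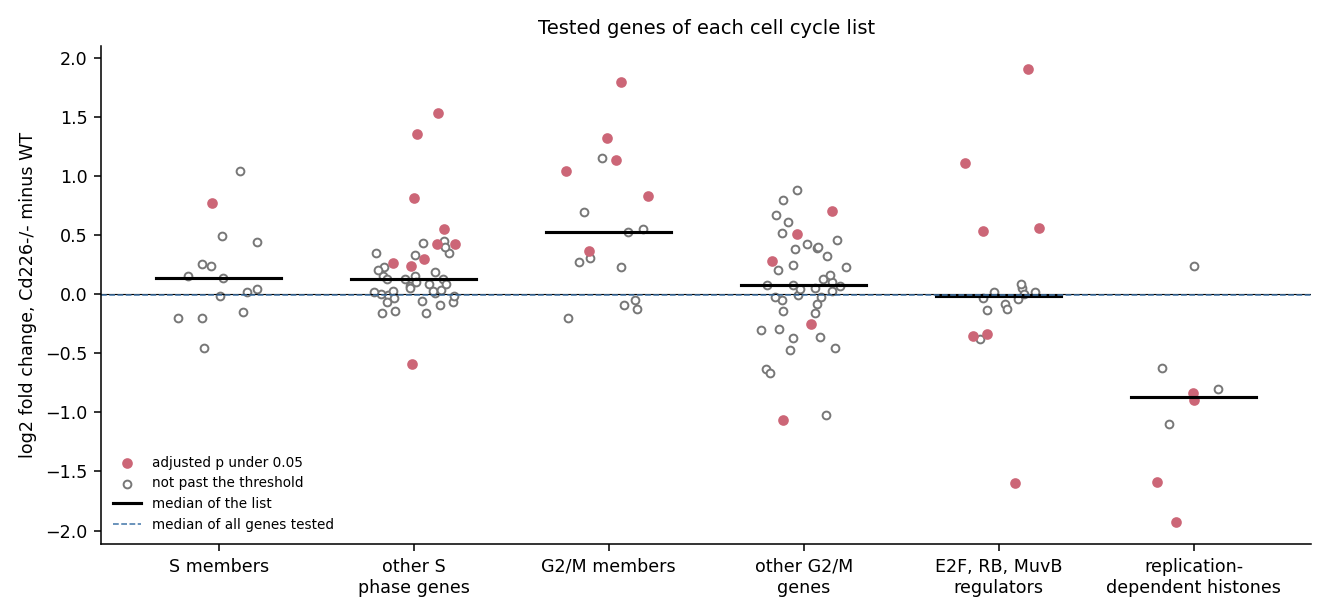
Each point is the log2 fold change, Cd226-/- minus WT, of one tested gene in 6 lists, filled where the edgeR adjusted p was under 0.05, with the median of each list as a bar and that of all tested genes as a dashed line. The medians are 0.13 for S phase members, 0.52 for G2/M members, 0.074 for other G2/M genes and -0.87 for histones.

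Markers of other cell types that such a culture could hold also differed between the genotypes, and their part in the results above was not tested. The marker counts stand beside 16.1% of all tested genes higher and 14.8% lower in Cd226-/- libraries. All 8 tested of 10 B cell markers were higher, with sums of 21.7, 19.5 and 25.1 CPM in WT and 47.7, 58.4 and 61.1 CPM in Cd226-/- libraries and with Ighm at 0 in all of them. Of 6 tested stroma markers 5 were higher, and the sums were 497 to 577 CPM in WT and 774 to 809 CPM in Cd226-/- libraries. Of 6 tested stem or progenitor markers 4 were lower, with sums of 30.9 to 38.8 and 21.6 to 23.2 CPM. Dendritic cell markers (2 of 5 higher) summed to 42.5 to 59.4 and 68.7 to 78.2 CPM, most of it Ccr7 (means of 43.4 and 63.6 CPM). None of 6 T or NK cell markers passed (7.25 to 9.14 and 7.17 to 8.44 CPM, Trac at 0), nor did either of 2 neutrophil markers (49.4 to 62.8 and 57.9 to 64.8 CPM). Most of the neutrophil sum was S100a8, with means of 55.2 CPM in WT and 58.8 CPM in Cd226-/- libraries, while Ly6g had 0.127 and 0.0765 CPM. Mast cell or basophil markers (1 of 3 higher, Mcpt8 at 0) summed to 15.2 to 19.1 and 18.4 to 21.8 CPM. Erythroid markers were not tested, with sums of 0 to 0.407 and 0.0551 to 0.218 CPM and 5 of the 7 in the table at 0 everywhere. Of 8 hepatocyte markers only Trf passed the filter on low counts, and it was not called (log2 0.071, edgeR adjusted p 0.302). In the fit of genes with at least 1 count 5 of the 8 were higher, Apoa1, Apoa2, Ttr, Ahsg and Fgb, beside 9.70% of all genes. These calls rest on Cd226-/- replicates 2 and 3. In Cd226-/- replicates 1 to 3 the counts were 0, 24 and 42 for Apoa1, and 3, 28 and 31 for Apoa2. They were 0, 14 and 16 for Ttr, 0, 31 and 48 for Ahsg, and 0, 11 and 11 for Fgb. No WT library had more than 3 counts of any of them.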

How the data were processed

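Whole-number read counts per gene were deposited by the authors in 1 table for 6 libraries. HISAT2 and the build GRCm38 are named in the submitters' processing notes, without a version of HISAT2; the sources used here do not give the counter, its strand setting, the gene annotation or the RNA selection. Depth was 16838527 to 21658061 counts per library.

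Genes were kept with about 10 counts (0.549 CPM) in at least 3 libraries, which left 13215. They were scaled by TMM and fitted with edgeR 4.0.16 in R 4.3.3 (robust quasi-likelihood, genotype as the only term, 4 residual degrees of freedom, two-sided), with Benjamini-Hochberg adjustment over all of them. The biological coefficient of variation was 6.75%. Alternatives were DESeq2 1.42.0, limma-voom (limma 3.58.1), other scalings and filters, a replicate block and libraries left out. TPM used exon lengths of GENCODE annotation, which had 94.1% of tested symbols and all 38 members, and was not scaled by TMM. Promoters and positions are from RefSeq. Ratios for untested genes have exact binomial 95% intervals.

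All 38 members are described. From each further list the 3 tested genes with the highest mean CPM and up to 4 called genes with the smallest adjusted p are named; Pola1, Cenpa, E2f8, Lin9 and E2f6 were named after their values were seen. Members and lists were chosen with earlier results of these data known. The script was tested on simulated data. Same-numbered libraries did not deviate together, so replicate numbers were not used as pairs.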

Additional observations from a re-analysis of the deposited data

How the results depend on the processing

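Of 427 refits of single members, 379 kept direction and call, 14 lost a call, 7 gained one and 27, all of uncalled members, changed sign. Against 7 members higher (1 S phase, 6 G2/M) and 0 lower, testing only genes of at least 5 CPM gave 4 higher (3 S phase, 1 G2/M), an adjusted p under 0.01 gave 4 (3 of them G2/M), and Cd226-/- replicate 1 as the only Cd226-/- library gave 3 (2 G2/M) with 1 S phase member lower. Scaling by library size alone gave 1 S phase member lower. Leaving out 1 library at a time gave 4 to 7 members higher, 1 to 2 of S phase and 3 to 6 of G2/M, and 0 lower. With Cd226-/- replicate 1 alone the S phase median was -0.127. With 1 library left out it was -0.0213 to 0.136, and the G2/M median was 0.339 to 0.590. The G2/M minus S phase difference of 0.239 became 0.409 and 0.107 with pseudocounts of 0.1 and 2 CPM. Replicate numbers did not pair the libraries (correlations of 0.0124, -0.0129 and 0.0121 between same-numbered libraries), and the replicate block gave 7 members higher and 0 lower. The cause of these changes was not tested, and the shares of all genes called under these settings were not counted.

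Signs changed with Cd226-/- replicate 1 alone for Rrm2 (-0.317), Mcm2 (-0.172), Mcm3 (-0.127) and Mcm6 (-0.226), by library size for Mcm3 (-0.0115) and Mcm6 (-0.0306), and for Cdca3 by limma-voom (0.207) and with the replicate block (0.0181). Single libraries left out gave log2 ranges of Rrm1 -0.102 to 0.0676, Rrm2 -0.0213 to 0.711, Mcm3 -0.0691 to 0.12, Mcm6 -0.069 to 0.133, Cdc6 -0.694 to 0.0206, Cdk1 -0.387 to 0.109, Birc5 -0.577 to 0.212, Foxm1 -0.733 to 0.131 and Cdca3 -0.568 to 0.400. Of the 23 G2/M members 22 had a mean under 5 CPM.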
